A study of Rattus norvegicus with 59 samples.

Results

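H3K27me3 is a histone mark set by Polycomb repressive complex 2 and found over silenced genes, often those that direct development, and at a lower level across broad inactive stretches. Cardiomyocytes stop dividing early in life, and in their nuclei the mark is known to cover genes of other lineages and of the fetal heart programme. H3K9me2, set by the enzymes G9a and GLP that the study's title names, is another mark of repression and tends to cover long gene-poor stretches. The long H3K27me3 bins described here were the genomic bins of 750 kb or more in the authors' tables, chosen by length alone. They numbered 544 of 9703 bins. The other 9159 bins are called shorter bins.

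The mark was profiled in left ventricular nuclei of male Sprague Dawley rats, sorted as PCM1-positive, PCM1 being a protein that marks cardiomyocyte nuclei. Exercise rats, about 280 g at the start, ran interval sessions on an inclined treadmill for 6 weeks, and control rats of that weight stayed untrained. Banded rats, about 170 g at the start, had a suture tightened on the ascending aorta and were studied 6 weeks later, while sham-operated animals went through surgery without the tightening. These pairs are called the exercise and the surgery experiment below. Banded rats entered the study if the heart had thickened and was not failing, so the group stands for compensated pressure overload. Each group had 4 H3K27me3 samples and 4 H3K9me2 samples, and the authors deposited 1 column per group, so each value below is the authors' group value and carries no replicate error. No difference could be tested for that reason, and the read depth behind the values is unknown. Each sample holds many nuclei, so fewer nuclei with the mark and less mark per nucleus cannot be told apart.

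Values were deposited as log2 RPM, reads scaled to the size of the library, per bin. A bin gathers reads with its length, so levels are given as density, the RPM of a bin divided by its length in Mb. The 4 columns shared 1 distribution of values, with quartiles of 4.94, 5.91 and 6.94 log2 RPM in each. A gain or loss of the mark over all bins would therefore not show, and a difference between groups tells of a bin's standing among the other bins. The mean density over all covered sequence was 385 RPM per Mb, and this level serves as the reference for what is sparse or dense.

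The long bins were mostly sparse, against the name of domain that is often given to long H3K27me3 segments. Their median density, taken as the mean of the 4 groups, was 283 RPM per Mb (10th to 90th percentile 179 to 578), and that of shorter bins was 350 RPM per Mb (195 to 764). Of the 544 long bins, 376 lay below the mean density of the genome in all 4 groups and 127 lay above it in all 4. By the mean of the 4 groups, 26.1% of long bins and 44.1% of shorter bins were above it. The segments are therefore called long bins here, since most of them were not rich in the mark. At the length limit, the 16 bins of 750.002 kb had a median density of 385 RPM per Mb, and the 18 bins of 740.002 kb just outside had 307 RPM per Mb.

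Density fell with length among the long bins. The 245 bins under 1 Mb had a median of 327 RPM per Mb, close to the 325 RPM per Mb of the 648 bins of 500 to 750 kb. The 206 bins of 1 to 1.5 Mb had 279 RPM per Mb and the 93 bins of 1.5 Mb or more had 228 RPM per Mb. Over the 544 long bins, length and density were correlated at r = -0.24 (Pearson) and rho = -0.31 (Spearman), which describes bins that share their libraries and, where they adjoin, their surroundings. The decline was present in each group. In control rats the medians went from 314 to 203 RPM per Mb between the shortest and the longest class of long bins, and in banded rats from 345 to 263 RPM per Mb.

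**Figure D1:**
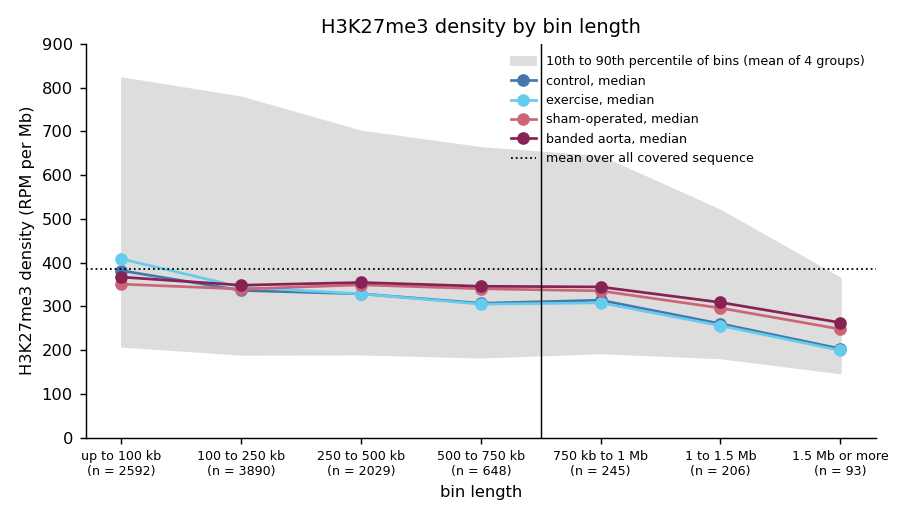
H3K27me3 density in RPM per Mb (vertical axis) by bin length (horizontal axis, number of bins in brackets). Coloured points are medians of 1 group, the grey area spans the 10th to 90th percentile of bins by the mean of the 4 groups, the dotted line is the mean of 385 RPM per Mb and the vertical line marks 750 kb. Medians fall to between 199 and 263 RPM per Mb in bins of 1.5 Mb or more.

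The groups of the surgery experiment had higher densities in the long bins than those of the exercise experiment. The median over the 544 bins was 265 RPM per Mb in control and 262 in exercise rats. It was 299 RPM per Mb in sham-operated and 308 in banded rats. The shorter bins had 345, 354, 345 and 355 RPM per Mb in the same order, so the ratio of long to shorter bins was 0.768, 0.739, 0.866 and 0.868. The spread among long bins was also narrower in the surgery experiment: the 90th percentile was 3.55 times the 10th in control, 3.80 times in exercise, 2.86 times in sham-operated and 2.78 times in banded rats. Start weight, operation and experiment all differ between these pairs of groups and cannot be told apart.

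Long bins covered 654 Mb of the 2510 Mb in the table, or 26.1%, and held less than that share of the signal. Their part of the summed RPM was 20.4% in control, 20.2% in exercise, 22.2% in sham-operated and 22.6% in banded rats. By chromosome, their share of covered length was highest on chromosome 15 (37.0%, 27 bins), chromosome 13 (34.8%, 33 bins), chromosome 2 (33.9%, 69 bins) and chromosome 11 (32.4%, 24 bins). It was lowest on chromosome 10 (14.3%, 15 bins), chromosome 8 (19.2%, 23 bins) and chromosome 12 (20.5%, 8 bins). Chromosome 2 held the most long bins, 69 of the 544, and 86.0 Mb of their length. Across the 20 chromosomes, the share in long bins fell as the chromosome's own mean density rose (Pearson r = -0.87, Spearman rho = -0.85, n = 20), a description in which the long bins enter both measures.

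On 18 of 20 chromosomes the median long bin was sparser than the median shorter bin. Chromosome 10 was one exception, with 548 RPM per Mb in its 15 long bins and 414 RPM per Mb in its shorter bins, and chromosome 17 the other, with 393 and 361 RPM per Mb. On chromosome 10, 9 of 15 long bins exceeded the mean density of the genome. On chromosome 15, where the long bins took the largest share, 2 of 27 did, and their median of 240 RPM per Mb was the lowest of the 20 chromosomes. Chromosome 2 had 8 of 69 above the mean.

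**Figure D2:**
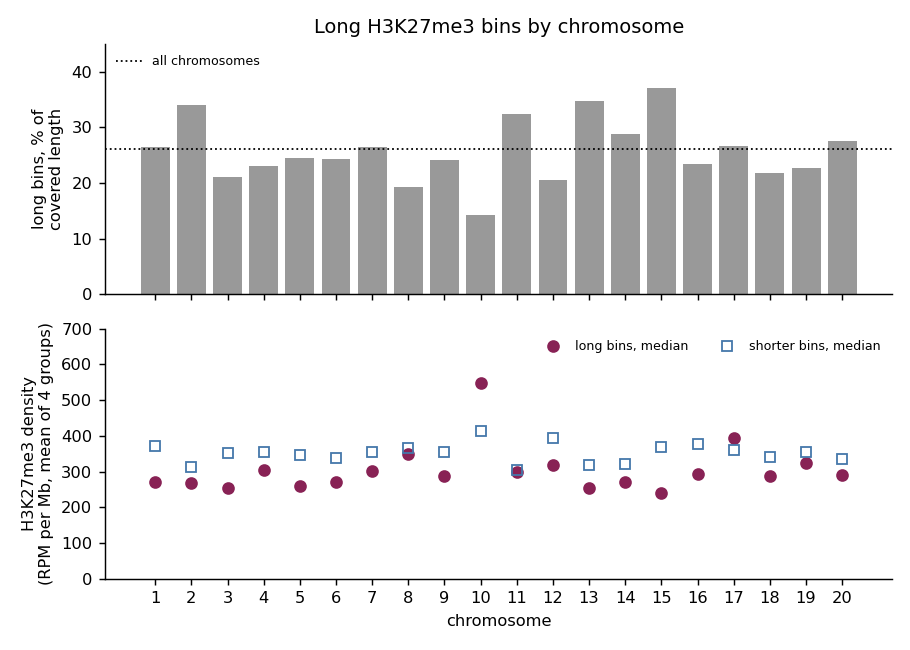
Top, the share of each chromosome's covered length in bins of 750 kb or more (bars, in %), with the dotted line at 26.1% for all chromosomes. Bottom, median H3K27me3 density in RPM per Mb of long bins (filled circles) and shorter bins (open squares), mean of 4 groups. Chromosome 10 has the smallest share and the densest long bins, and chromosome 15 the largest share and the sparsest.

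The densest long bin stood far above the others. It lay on chromosome 16 from 26865000 to 28275002. Positions here and below are those of the deposited table, for which no source used here names a genome build. Its value was 11.30 log2 RPM in control, exercise and sham-operated rats and 11.34 in banded rats, which is 1789 RPM per Mb in the first 3 groups and 1840 in the last. It ranked 1 of 9703 bins by RPM in every group, while the nearest bins on either side had 426 and 314 RPM per Mb.

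A pair of dense long bins followed on chromosome 5. The bin from 143225000 to 143995002 had 1164, 1136, 1079 and 1032 RPM per Mb in control, exercise, sham-operated and banded rats. The bin from 144465000 to 145385002 had 1183, 1183, 1019 and 999 RPM per Mb in that order. Both stood out from the bins beside them, which had 218 to 389 RPM per Mb. On chromosome 10 the bin from 69045000 to 70255002 had 1117 RPM per Mb in both groups of the exercise experiment and 963 in both groups of the surgery experiment. By RPM it ranked 4 in each of the former and 5 in each of the latter. As the columns shared 1 distribution, equal ranks within an experiment gave equal values here. On chromosome 14 the bin from 4025000 to 4995002 was instead higher in the surgery experiment, with 902 and 877 RPM per Mb in control and exercise rats and 981 and 1051 in sham-operated and banded rats. These 5 were the densest of the 544.

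At the other end, the sparsest long bin lay on chromosome 2 from 29335000 to 30085002. It had 52.4, 49.5, 65.1 and 56.0 RPM per Mb in control, exercise, sham-operated and banded rats, with the nearest bins on either side at 379 and 470 RPM per Mb. A far longer one, on chromosome 1 from 49805000 to 52805002, had 59.7, 50.1, 57.6 and 63.6 RPM per Mb in the same order. The bin on chromosome 6 from 49455000 to 50225002 had 56.5, 53.1, 72.1 and 62.9 RPM per Mb, and that on chromosome 4 from 99195000 to 99955002 had 50.7, 53.1, 76.5 and 96.1 RPM per Mb. All 4 were far below the mean of 385 RPM per Mb in every group.

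The longest bin of the table was also among the 5 sparsest. It spanned 4.62 Mb on chromosome 7 from 3235000 to 7855002, with 80.6, 68.9, 68.6 and 79.4 RPM per Mb in control, exercise, sham-operated and banded rats. The other long ones differed widely. A 4.58 Mb bin on chromosome 2 from 132945000 to 137525002 had 186, 188, 238 and 250 RPM per Mb, higher in both surgery groups. A 3.53 Mb bin on chromosome 1 from 66215000 to 69745002 had 162, 149, 197 and 199 RPM per Mb. The 3.43 Mb bin on chromosome 20 from 14255000 to 17685002 was near the genome's mean, with 367 RPM per Mb in control and exercise rats and 394 in sham-operated and banded rats. Its rank by RPM was 5 in each of the former and 2 in each of the latter, so these equal values are equal ranks.

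Seen against what surrounded them, long bins were somewhat sparser by the ratio to their neighbours, but not by how often they lay below both. Over bins with a bin directly on both sides, the median log2 ratio of own density to the neighbours' mean was -0.21 for long and -0.13 for shorter bins. Of the 339 long bins with a bin directly on both sides, 123 (36.3%) were sparser than both neighbours, 113 (33.3%) were denser than both and 103 lay between. For shorter bins the shares below and above both neighbours were 37.2% and 37.2%. The neighbours of long bins were sparse as well, with a median of 300 RPM per Mb against 352 RPM per Mb for neighbours of shorter bins. The 339 long bins themselves also had a median of 300 RPM per Mb, and the shorter bins with both neighbours had 356 RPM per Mb. Of the 544, 84 adjoined another long bin, forming 38 runs of 2 to 4 bins. The 4 long bins in a row on chromosome 2 from 204685000 to 209575002 ranged from 228 to 441 RPM per Mb, and the 4 on chromosome 15 from 69745000 to 73675002 from 204 to 270 RPM per Mb. Gaps without a bin bordered 21.2% of the ends of long bins and 15.0% of the ends of shorter bins. Within 5 Mb of the first or last covered base of a chromosome lay 55 long bins (10.1%), against 7.5% of shorter bins.

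Training was compared with control to ask whether physiological growth of the heart moves the mark in these stretches. The median difference over the long bins, exercise minus control, was -0.012 on the log2 scale (SD over bins 0.074), and 327 bins were lower, 193 higher and 24 equal in trained rats. Shorter bins had a median of 0.013 (SD 0.11), and 43.9% of them were lower against 60.1% of long bins. None of the long bins (0 of 544) differed by more than 0.5, a limit that 0.124% of all bins passed (0.0824% higher, 0.0412% lower). Past a difference of 0.2 there were 26 long bins, all lower in trained rats, or 4.78%, against 7.25% of all bins in either direction. Over all bins 4.86% were lower and 2.38% higher by that much, so the share of lower long bins was near that of the background, while no long bin was higher. Without the sparsest 10% of bins, 17 long bins passed this limit.

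The downward shift was larger in longer bins. Medians were -0.0066 under 1 Mb, -0.013 from 1 to 1.5 Mb and -0.018 at 1.5 Mb or more, with 42.0%, 33.5% and 22.6% of bins higher in trained rats. By contrast, 70.4% of bins under 100 kb were higher in trained rats, with a median of 0.059. Bins of 100 to 250 kb had a median of 0.0061 (52.8% higher). Those of 250 to 500 kb had -0.0068 (46.1% higher) and those of 500 to 750 kb -0.0045 (46.9% higher). The medians from 250 to 750 kb were close to that of long bins under 1 Mb, so a small fall was not particular to long bins. The shift was larger in sparse long bins: the sparsest 109 had a median of -0.052, and the densest 109 one of 0.0031.

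The lowest differences with training belonged to 3 bins of 202 to 251 RPM per Mb, sparser than the median long bin. The bin on chromosome 12 from 33055000 to 33815002 was at 7.11 log2 RPM in control and 6.70 in trained rats, a difference of -0.41. On chromosome 19 from 50195000 to 51035002 the values were 7.45 and 7.09 (difference -0.36). On chromosome 3 from 59045000 to 60005002 they were 7.57 and 7.23 (-0.34). In the surgery experiment these bins were higher than in both control and trained rats, at 7.68 and 7.38, 8.11 and 7.99, and 8.20 and 8.00 log2 RPM in sham-operated and banded rats. Gains with training were small: 8.38 to 8.5 log2 RPM on chromosome 1 from 159735000 to 160605002 (0.12), 7.29 to 7.38 on chromosome 14 from 68175000 to 68965002 (0.093) and 8.11 to 8.20 on chromosome 18 from 50865000 to 52165002 (0.091).

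Banding was compared with sham operation to ask the same of pressure overload. The median difference over the long bins, banded minus sham-operated, was 0.037 (SD over bins 0.086), and 400 bins were higher, 133 lower and 11 equal in banded rats. Shorter bins had a median of 0.0050 (SD 0.12), with 51.7% higher against 73.5% of long bins. No long bin (0 of 544) differed by more than 0.5, which 0.0412% of all bins did (0.0206% higher and 0.0206% lower). Past 0.2 there were 20 long bins (3.68%) against 8.7% of all bins. Of these, 5 were higher (0.919%, against 3.44% of all bins) and 15 lower (2.76%, against 5.26%). The 20 became 10 without the sparsest 10% of bins and 13 with a pseudocount of 18.4 RPM, so the sets built on this limit rest in part on sparse bins.

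The shift with banding also grew with length, in the upward direction. Medians were 0.030 under 1 Mb, 0.041 from 1 to 1.5 Mb and 0.062 at 1.5 Mb or more, and 66.5%, 76.2% and 86.0% of bins were higher in banded rats. On 18 of 20 chromosomes the median of the long bins was above 0, the exceptions being chromosome 10 (-0.030) and chromosome 12 (-0.018). On 19 chromosomes it was above that of the shorter bins of the same chromosome. For training, the median of the long bins was below that of the shorter bins on 18 of 20 chromosomes. For banding, the SD over bins was 0.11 to 0.13 in the classes under 500 kb and 0.077 to 0.092 in the classes of long bins. For training, it was 0.096 to 0.117 and 0.065 to 0.081. The median RPM per bin was 56.2 in shorter and 329 in long bins, and its part in this narrower spread was not tested.

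**Figure D3:**
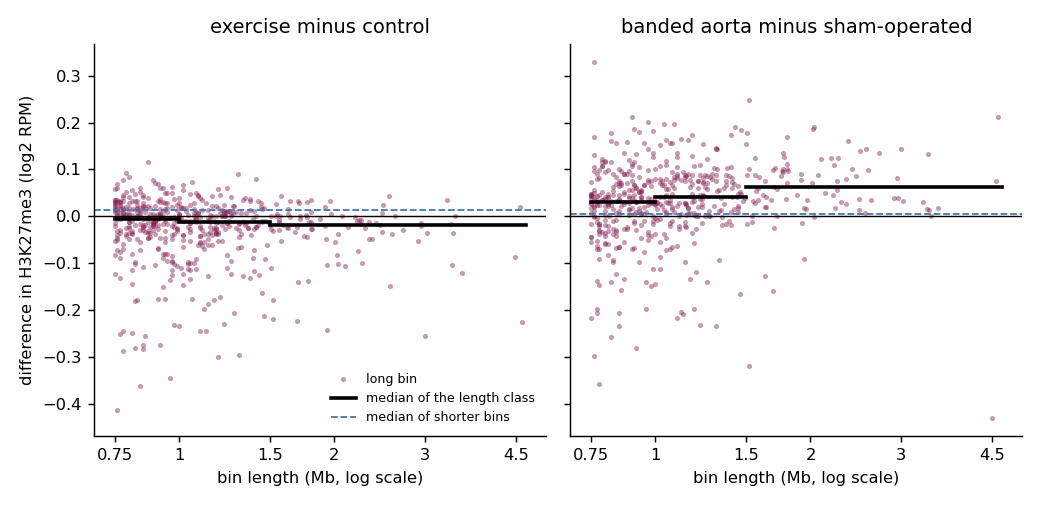
Difference in H3K27me3 in log2 RPM (vertical axis) by bin length in Mb (log scale) for exercise minus control (left) and banded aorta minus sham-operated (right). Each point is 1 of the 544 long bins, black bars are medians of the length classes and the dashed line is the median of shorter bins. The medians go down to -0.018 with training and up to 0.062 with banding in bins of 1.5 Mb or more.

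One of the longest bins moved against most others. The 4.49 Mb bin on chromosome 15 from 27765000 to 32255002 was at 9.89 log2 RPM in control, 9.81 in trained, 10.16 in sham-operated and 9.73 in banded rats. Its difference with banding, -0.43, was the lowest of the 544, and banded rats had the lowest value of the 4 groups. The next were on chromosome 17 from 68785000 to 69565002 (7.69 in sham-operated and 7.33 log2 RPM in banded rats, -0.36) and on chromosome 1 from 74245000 to 75765002 (7.94 and 7.62, -0.32). The gains belonged to sparse bins. On chromosome 4 from 99195000 to 99955002 the value was 5.86 log2 RPM in sham-operated and 6.19 in banded rats (0.33), on chromosome 17 from 67065000 to 68585002 it was 6.83 and 7.08 (0.25), and on chromosome 12 from 19855000 to 20755002 it was 6.06 and 6.27 (0.21). All 3 had mean densities under 90 RPM per Mb (69.1, 86.4 and 89.4).

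Since long bins were sparse, they were also set beside shorter bins of like density, in 10 density classes of equal size over all bins, a comparison added after the values had been seen. In the 75 long bins of the sparsest class the median difference with banding was 0.075, while the 896 shorter bins of that class had -0.098. The next class gave 0.055 and -0.079, and the third 0.070 and -0.020. From the fifth to the ninth class the long bins lay below the shorter ones by 0.0059 to 0.029. Averaged over the classes, weighted by the long bins in each, long minus shorter was 0.051 for banding, against 0.032 without classes. For training it was -0.0033, against -0.025 without classes: sparse long bins fell less than sparse shorter bins (-0.062 and -0.082 in the sparsest class), while in the fifth to the tenth class the long bins had medians of -0.00012 to 0.010 and the shorter ones 0.018 to 0.046. The averages join classes of opposite sign: with training long bins were above shorter bins in the 3 sparsest classes and below them in the other 7, and with banding they were above in 5 and below in 5. The value near 0 for training is therefore a balance of both and not a lack of difference within classes.

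**Figure D4:**
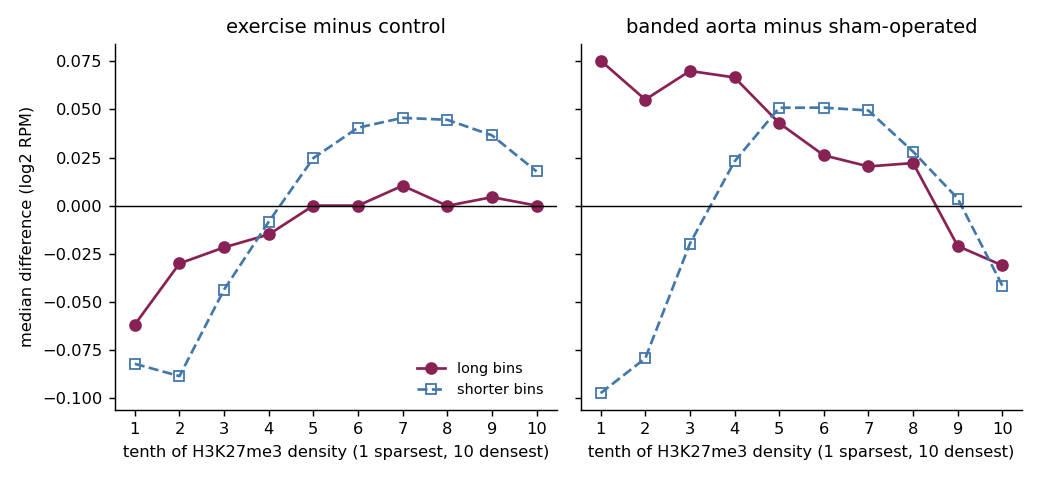
Median difference in H3K27me3 in log2 RPM (vertical axis) over 10 classes of density (horizontal axis, sparsest to densest) for exercise minus control (left) and banded aorta minus sham-operated (right). Filled circles are long bins and open squares shorter bins of the same class. With banding, the sparsest class has 0.075 for long and -0.098 for shorter bins.

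Taken side by side, the most common pattern was lower with training and higher with banding, in 236 of 544 long bins (43.4%) and in 13.2% of shorter bins. A further 154 long bins were higher in both, 90 lower in both and 33 higher with training and lower with banding, and 31 were equal in at least one. These comparisons share no group. Taken one at a time, 60.1% of long bins were lower with training and 73.5% higher with banding, against 43.9% and 51.7% of shorter bins. With signs unrelated between the comparisons, such shares alone would make this pattern the most common in long bins. In shorter bins such shares would give more than the 13.2% seen, so the gap to long bins lies partly in shorter bins. A link between the signs was not tested. Across the 544 long bins the 2 differences gave r = 0.39 (Pearson) and rho = 0.0042 (Spearman), and across the 9159 shorter bins 0.52 and 0.51, as a description of bins that share their libraries.

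Among the bins lower in both, 12 long bins were lower by more than 0.2 in both comparisons, which is 46.2% of the 26 lower with training and 80.0% of the 15 lower with banding. They made up 2.21% of long bins. Of the shorter bins, 186 (2.03%) were lower by that much in both, which is 41.7% of those lower with training and 37.6% of those lower with banding, so such bins were about as frequent at either length. They lay on 8 chromosomes and were 760 kb to 1.52 Mb long, with mean densities of 124 to 383 RPM per Mb. Their differences ran from -0.41 to -0.22 with training and from -0.36 to -0.20 with banding. In all 12 the sham-operated value was above the control value, by 0.42 to 0.78, and in the 186 shorter bins it was above in 183. This is a description of bins chosen with sham-operated and control values in the rule. The bin on chromosome 8 from 20075000 to 20895002 had 7.35 log2 RPM in control, 7.07 in trained, 7.86 in sham-operated and 7.60 in banded rats. The bin on chromosome 10 from 95785000 to 97095002 had 7.64, 7.35, 8.26 and 8.02 log2 RPM in that order. Where both neighbours were present, in 9 of the 12, the bin was sparser than both of them (9 of 9), with neighbours of 259 to 965 RPM per Mb. The same held for 144 (90.0%) of the 160 such shorter bins with both neighbours present.

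H3K9me2 was read over the same stretches from its own 6171 bins, weighted by overlap, as a mark that did not enter the choice of bins. The median H3K9me2 density over the long bins was 370 RPM per Mb, and over shorter bins 386 RPM per Mb. In RPM per Mb, the long bins thus stood lower in H3K27me3 (283 against 350) by more than in H3K9me2. H3K9me2 density also varied less from bin to bin. Over all bins its 90th percentile was 1.54 times the 10th, against 3.89 times for H3K27me3. These spreads are not measured alike, since H3K9me2 was averaged onto bins that were not its own. Whether the lowering is particular to H3K27me3 was not tested. By group, the long bins had 371, 366, 370 and 377 RPM per Mb of H3K9me2 in control, exercise, sham-operated and banded rats. A single H3K9me2 bin of at least 1 Mb filled 50% or more of 404 long bins (74.3%), against 28.1% of shorter bins. Borders matched less often: 26.3% of the 857 borders of long bins that touch another bin lay within 10 kb of an H3K9me2 border, against 35.7% for shorter bins.

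The densities of both marks went together over the long bins (Pearson r = 0.72, Spearman rho = 0.73, n = 544), more so than over shorter bins (0.54 and 0.57, n = 9159), as a description of bins that share sequence and base composition. Against the mean of each mark, 300 long bins were low in both, 121 high in both, 102 high in H3K9me2 alone and 21 high in H3K27me3 alone. The 5 sparsest in H3K27me3 ranked 2 to 20 from the bottom of the 544 in H3K9me2, with 120 to 195 RPM per Mb. The densest, on chromosome 16, had 818 RPM per Mb of H3K9me2 in every group. It spanned 1.41 Mb inside a single H3K9me2 bin of 7430000 bases, so this value is an average over that longer stretch. The H3K9me2 columns had the same maximum, 12.57 log2 RPM, in every group. The H3K9me2 bin over this long bin was at that maximum in each group, so its equal values are equal ranks and do not show a constant level. These 6 bins were at the same end of the range for both antibodies, with H3K9me2 read at the scale of its own bins.

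The differences of both marks were opposed with training and aligned with banding. Over the long bins, the H3K27me3 and H3K9me2 differences gave r = -0.43 and rho = -0.36 for training and r = 0.61 and rho = 0.41 for banding (n = 544). Shorter bins gave -0.34 and -0.38 for training and 0.42 and 0.39 for banding (n = 9159), so the signs were not particular to long bins. These describe bins that share libraries and surroundings. The 26 long bins lower by more than 0.2 in H3K27me3 with training were all higher in H3K9me2 with training (26 of 26, median 0.087), against 37.3% of all long bins. Shorter bins with that fall were alike, with 412 of 446 (92.4%) higher, against 53.6% of all shorter bins. The 15 lower by more than 0.2 with banding were all lower in H3K9me2 with banding (15 of 15, median -0.26), against 28.1% of all long bins. Of the 495 shorter bins with that fall, 453 (91.5%) were lower, against 47.2% of all shorter bins. The 12 bins lower in both comparisons had H3K9me2 higher by 0.022 to 0.18 with training and lower by 0.16 to 0.41 with banding. On chromosome 12 from 33055000 to 33815002, H3K9me2 was 196 RPM per Mb in control, 218 in trained, 404 in sham-operated and 305 in banded rats. On chromosome 17 from 68785000 to 69565002 it was 236, 245, 514 and 427 RPM per Mb. In these 2 bins both marks were higher in both surgery groups than in control and trained rats. On chromosome 1 from 74245000 to 75765002, another of the 12, H3K9me2 was 195 RPM per Mb in control, 213 in trained, 232 in sham-operated and 208 in banded rats, so banded rats were not above trained rats there.

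The long bin on chromosome 15 with the lowest difference for banding followed the aligned pattern with banding, being lower in both marks. With training both marks were lower as well (H3K27me3 -0.087), so they were not opposed there. Its H3K9me2 density was 183 RPM per Mb in control, 152 in trained, 137 in sham-operated and 129 in banded rats, so H3K9me2 was lower in both comparisons (-0.26 and -0.094) and lower after surgery, while H3K27me3 was highest in sham-operated rats.

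**Figure D5:**
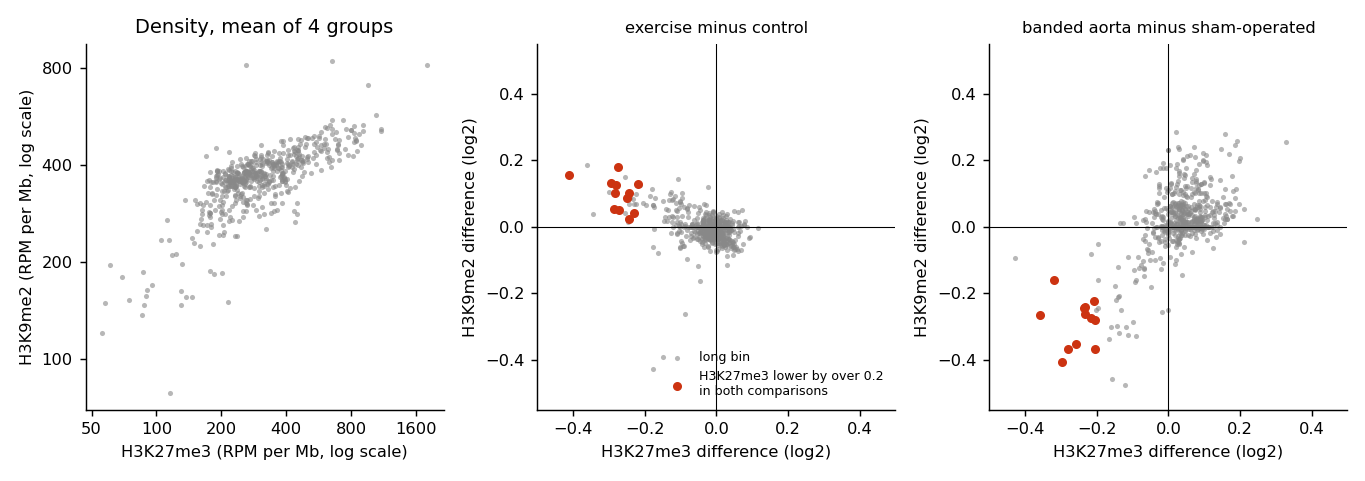
H3K27me3 (horizontal axes) against H3K9me2 (vertical axes) over the 544 long bins: density in RPM per Mb on log scales (left), and differences in log2 for exercise minus control (middle) and banded aorta minus sham-operated (right). Red points are the 12 bins whose H3K27me3 was lower by more than 0.2 in both comparisons, and they have higher H3K9me2 with training and lower H3K9me2 with banding.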

How the data were processed

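Chromatin immunoprecipitation of H3K27me3 and H3K9me2 was sequenced from sorted nuclei, and the authors deposited log2 RPM per bin as 1 column per group, per the file headers. The files' names give circular binary segmentation as the source of the bins, whose borders lie on a grid of 10 kb but for 11 bins. Per the submitters' processing notes, edgeR, Bowtie, R 2.15.1 and SAMtools were used, with no role given. No source used here gives the genome build, how replicates were combined, the normalization, the use of the 4 inputs or the samples that set the borders. Borders, and with them the length by which long bins were chosen, may therefore depend on the signal and on the groups compared.

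Density was 2 to the power of the deposited log2 value divided by the bin's length. Long bins were those with end minus start of at least 750 kb. Differences were taken on the log2 values with no pseudocount, with limits of 0.5 and 0.2. H3K9me2 density was averaged over each bin by overlap. Neighbours were bins with no gap between. Python 3.11.15, pandas 2.3.3, numpy 2.4.6 and matplotlib 3.10.9 were used, and the calculations were tested on simulated data. No test was possible with 1 column per group.

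Bins named in the text were the 5 longest, densest and sparsest, the 3 highest and lowest differences of each comparison and those nearest the length limit. Bins named from the set lower in both comparisons, and the runs, were chosen after their values were seen. The bins and limits were chosen with earlier results of these data known. RNA tables and chromosome sequences were not used here.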

Additional observations from a re-analysis of the deposited data

How the results depend on the processing

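The ratio of median density, long to shorter bins, was 0.811. It was 0.868 with a length limit of 500 kb, 0.745 with 1000 kb, 0.813 without the sparsest 10% of bins, 0.810 without chromosome 2 and 0.770 from summed RPM over summed length. The median difference of long bins with training (-0.012) was -0.0088 at 500 kb, -0.015 at 1000 kb, -0.0089 without the sparsest 10%, -0.022 centred on the median of all bins, -0.013 without chromosome 2 and -0.017 from summed RPM. That with banding (0.037) was 0.029, 0.045, 0.035, 0.029, 0.037 and 0.026 in the same order, and 0.035 with a pseudocount of 18.4 RPM, the 10th percentile. Both kept their sign under each of these settings. At 500 kb, 1 bin passed 0.5 with training. The share of covered length (26.1%) was 41.5% at 500 kb, 17.7% at 1000 kb and 25.6% of the chromosomes' spans. The H3K9me2 ratio (0.958) was 0.977 at 500 kb, 0.938 at 1000 kb and 0.929 from sums. Long minus shorter for training was -0.0033 within density classes and -0.025 within classes of RPM per bin (-0.025 without classes). For banding it was 0.051 within density classes and 0.060 within classes of RPM per bin (0.032 without). Of the 10 classes of RPM per bin only 7 held long bins, and 436 of the 544 were in the highest. Those classes therefore matched long and shorter bins only loosely. The counts past 0.2, 26 and 20, were 74 and 56 at 500 kb, 13 and 9 at 1000 kb, 17 and 10 without the sparsest 10%, 23 and 13 with the pseudocount and 27 and 22 when centred.

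No paired analysis was possible because the tables hold 1 column per group, and for the same reason no replicate was left out. Read depth is unknown, so no counting error is given for a bin.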
